A study of Mus musculus with 3 samples.

Results

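Transcript levels of the angiopoietin and TIE receptor genes were examined in lymphatic endothelial cells sorted from the large intestine of mice. The set was taken by gene symbol and holds 8 of the 24091 genes listed: the angiopoietins Angpt1, Angpt2 and Angpt4, the related gene Angptl4, the receptors Tek and Tie1, the phosphatase gene Ptprb and Svep1. All 8 were found. The rule uses gene symbols and no threshold on a measured value. The cells came from digested intestine of C57BL/6 mice and were collected by flow sorting on lymphatic markers, among them CD31, podoplanin and LYVE1. The series holds 1 group of 3 bulk RNA-seq libraries, called replicates 1, 2 and 3. The sample labels give no treatment, genotype, age or sex, and the names of the deposited tables carry the word Water, whose meaning is not given. Nothing states that each library is a different animal. The p-values therefore refer to these libraries only, and the spread between them may be technical. Lymphatic capillaries and collecting vessels, both named in the title of the series, were not separated. Values are in TPM, an abundance meant to be corrected for transcript length and for the total of the library. Comparing different genes within a library rests on that correction, and how it was computed is not given. It matters most for long transcripts such as those of Ptprb (11911 bases) and Svep1 (11629 bases).

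TEK, also called TIE2, is the receptor tyrosine kinase that angiopoietins bind, and TIE1 is its close relative, which joins TEK in a complex and alters its signalling. ANGPT1 activates TEK, whereas ANGPT2 can activate or block it depending on the vessel and on the phosphatase PTPRB (VE-PTP), which removes phosphate from TEK. Mice need ANGPT2, TIE1 and the matrix protein SVEP1, a binding partner of TIE1, to form normal lymphatic vessels. ANGPTL4 shares the fold of the angiopoietins but does not signal through TEK, and is best known as an inhibitor of lipoprotein lipase.

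The cells were checked against marker genes before the results. All 11 lymphatic endothelial markers reached 1 TPM in every library, Prox1 being the lowest with a mean of 3.58 ± 1.12 (SD, n = 3). Markers of other cells were also present: all 11 epithelial, 9 pericyte and smooth muscle, 8 fibroblast and 8 macrophage markers reached 1 TPM in every library. The 11 epithelial markers summed to 13789, 17383 and 18338 TPM in replicates 1, 2 and 3, far above the 11 lymphatic markers at 1692, 1771 and 984. Replicate 3 stood apart. The lymphatic sum was lowest there, while that of the fibroblast list, at 189, 130 and 477, was highest. The tables describe RNA of the whole sorted fraction and do not assign a transcript to a cell type. In such bulk RNA, fewer cells of a type and less RNA per cell cannot be told apart.

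The 2 receptor genes lie on the same chromosome and were the highest of the set, so the windows around their starts are shown for reference (RefSeq, GRCm38.p6, 250 bases before to 50 after a start, 5′ to 3′ on the strand of the gene). Capitals mark AGGAAG, an extended form of the GGAA core of ETS factors, searched on both strands. The Tek window is chr4:94739039-94739338 on the plus strand and the Tie1 window chr4:118489800-118490099 on the minus strand. The RefSeq gene start of Tek, 94739086, lies inside its window, upstream of the start that the window is built on. Much of the Tek stretch before that start is therefore within the gene. Tek has 4 RefSeq transcripts and Tie1 has 1, and no other Tek window was searched.
Tek: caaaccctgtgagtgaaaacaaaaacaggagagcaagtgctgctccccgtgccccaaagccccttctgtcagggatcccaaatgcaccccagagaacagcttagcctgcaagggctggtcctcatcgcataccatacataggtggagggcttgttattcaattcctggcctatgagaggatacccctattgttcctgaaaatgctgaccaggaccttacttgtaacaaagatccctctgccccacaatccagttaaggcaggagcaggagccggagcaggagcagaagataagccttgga
Tie1: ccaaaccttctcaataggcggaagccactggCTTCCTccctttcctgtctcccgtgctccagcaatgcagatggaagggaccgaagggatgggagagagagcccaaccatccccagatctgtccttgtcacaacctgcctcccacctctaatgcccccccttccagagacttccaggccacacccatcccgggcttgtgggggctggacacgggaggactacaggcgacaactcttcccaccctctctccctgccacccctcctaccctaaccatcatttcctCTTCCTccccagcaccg
The Tie1 window held 2 matches, beginning 219 bases before and 33 bases after the start, both on the opposite strand. The Tek window held 0 matches of these letters, although the shorter GGAA core occurs in it on the opposite strand. Of the 32851 RefSeq promoter windows of this length, 35.4% held at least 1 match of AGGAAG. The TATA motif TATAAA, held by 13.6% of the windows, was in neither. The windows of Svep1 and Angpt4, which are far lower in TPM than the receptor genes, also held 2 ETS matches each and 1 TATA match each. These are letter matches and not measured binding. Promoter windows were found for 4 of the 8 genes.

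The receptors led the set. Tie1 (Entrez 21846, chromosome 4, 118471191 to 118489849, minus strand) was at 78.8, 70.9 and 55.2 TPM in replicates 1, 2 and 3. It was lowest in replicate 3, and each of these values lay above every value of the other 7 genes. Its mean of 68.3 ± 11.97 ranked 2065 among the 24091 genes, and it fell between percentiles 89.2 and 92.9 of each library. Tek (Entrez 21687, chromosome 4, 94739086 to 94874976, plus strand) was at 21.1, 23.1 and 20.1 TPM. Its 3 values were close together, with a mean of 21.4 ± 1.50 and the smallest relative spread of the set, a coefficient of variation of 6.99%.

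Within each library Tie1 exceeded Tek. The ratio of their TPM was 3.73, 3.07 and 2.75 in replicates 1, 2 and 3, so that Tie1 made up 78.8%, 75.5% and 73.3% of the receptor transcripts. On the log2(TPM + 1) scale the difference was 1.61 ± 0.22, above 0 in 3 of 3 libraries. The exact two-sided sign-flip permutation test gave p = 0.25, and the Benjamini-Hochberg value over the 4 differences of this kind was also 0.25. This exact test cannot give a p below 0.25 with 3 libraries, so none of the 4 differences could pass a threshold of 0.05 by it. With 3 values on one side of 0 it gives 0.25 whatever their spread, so it reports only that the signs agree. The ranges of the receptor genes did not overlap.

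The receptors were also set beside other endothelial receptor genes, chosen after the values were seen. Tie1 stood at 0.888, 0.867 and 1.10 times Flt4, the gene of the lymphatic VEGF receptor VEGFR3. Tek stood at 0.668, 0.731 and 0.717 times Kdr, the gene of VEGFR2. The Tek to Kdr ratio thus varied little between libraries (0.706 ± 0.0331), and Tek to Flt4 more, at 0.238, 0.282 and 0.400. Tie1 was slightly above the level of Flt4 in replicate 3 and slightly below it in the other libraries.

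Ptprb, which encodes the phosphatase acting on TEK, was lower than either receptor gene. Ptprb (Entrez 19263, chromosome 10, 116275502 to 116389538, plus strand) was at 6.19, 6.41 and 11.95 TPM. Replicates 1 and 2 were alike and replicate 3 was higher, for a mean of 8.18 ± 3.27. Ptprb stood at 0.293, 0.278 and 0.594 times Tek, and the difference on the log2(TPM + 1) scale was -1.34 ± 0.55, below 0 in every library (exact sign-flip permutation test, two-sided, p = 0.25, adjusted 0.25). Without replicate 3 it was -1.66.

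Among the ligands, Angpt2 was the most abundant angiopoietin in every library. Angpt2 (Entrez 11601, chromosome 8, 18690263 to 18741562, minus strand) was at 9.63, 11.3 and 6.51 TPM, with a mean of 9.16 ± 2.45. Replicate 3 was the lowest, and all 3 values lay above those of Angpt1 and Angpt4. Angpt1 (Entrez 11600, chromosome 15, 42424667 to 42676977, minus strand), the activating ligand, was at 0.346, 0.611 and 0.638 TPM, below 1 in each library (mean 0.531 ± 0.161). Angpt4 (Entrez 11602, chromosome 2, 151911207 to 151945337, plus strand), a further TEK ligand, was at 0.0924, 0.339 and 0.798 TPM. Its mean of 0.410 ± 0.358 had an SD nearly as large as itself and was 0.216 without replicate 3. Regular steps in low TPM values allowed a rough estimate of the fragments behind a value, about 6, 21 and 45 for Angpt4 and 46, 71 and 68 for Angpt1, against 1051, 1094 and 575 for Angpt2. The levels of Angpt1 and Angpt4 are therefore imprecise, and their order was not the same in all libraries: Angpt1 was higher in 2 of 3.

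Angpt2 made up 95.6%, 92.3% and 81.9% of the summed TPM of the angiopoietins. Its ratio to Angpt1 was 27.8, 18.6 and 10.2 in replicates 1, 2 and 3, above 1 in each and lowest in replicate 3. On the log2(TPM + 1) scale, which understates ratios of low genes, Angpt2 exceeded Angpt1 by 2.71 ± 0.44 (exact sign-flip permutation test, two-sided, p = 0.25, adjusted 0.25). With a pseudocount of 0.1 the difference was 3.87.

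In transcripts of the sorted fraction, the receptor side of the axis exceeded the ligand side. Tek and Tie1 together came to 99.9, 94.0 and 75.4 TPM, and the angiopoietins to 10.1, 12.3 and 7.95 TPM. The ratio of these sums was 9.92, 7.64 and 9.48. The sort was on lymphatic markers, and angiopoietin transcripts of cells that it left out were not measured. Neither this ratio nor that of Angpt2 to Angpt1 thus gives the ligand supply of the tissue. The mean of Tek, Tie1 and Ptprb minus that of the angiopoietins was 3.11 ± 0.13 on the log2(TPM + 1) scale (exact sign-flip permutation test, two-sided, p = 0.25, adjusted 0.25). With a pseudocount of 0.1 it was 4.08 ± 0.40.

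**Figure D1:**
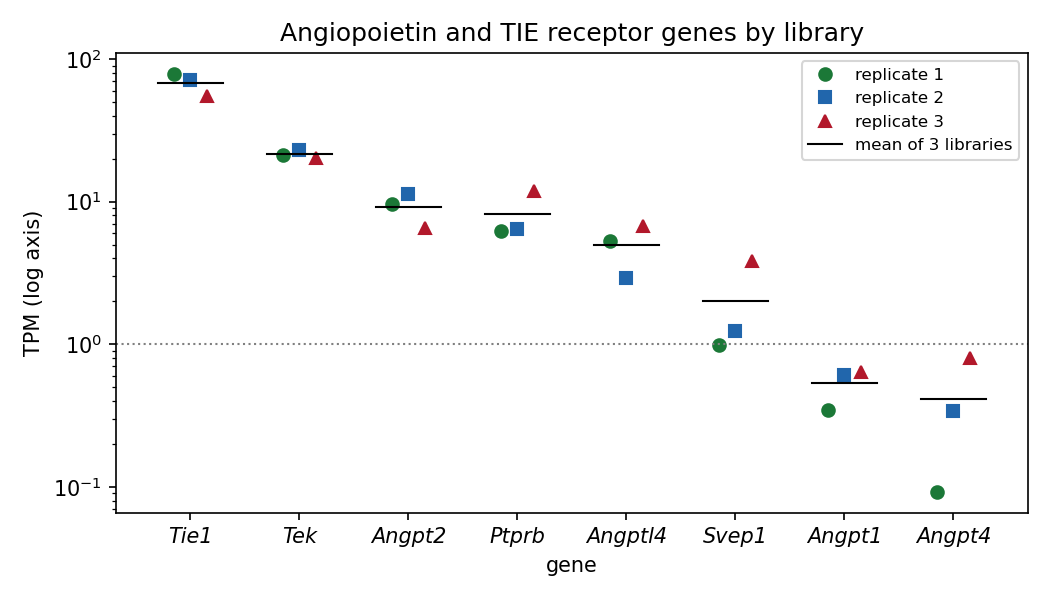
TPM (log axis) of the 8 genes in replicates 1, 2 and 3, ordered by mean, with a black bar at the mean of the 3 libraries and a dotted line at 1 TPM. Tie1 (55.2 to 78.8) and Tek (20.1 to 23.1) lie above the rest, Angpt1 and Angpt4 below 1 TPM, and the symbols of replicate 3 are the highest for 5 genes and the lowest for 3.

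**Figure D2:**
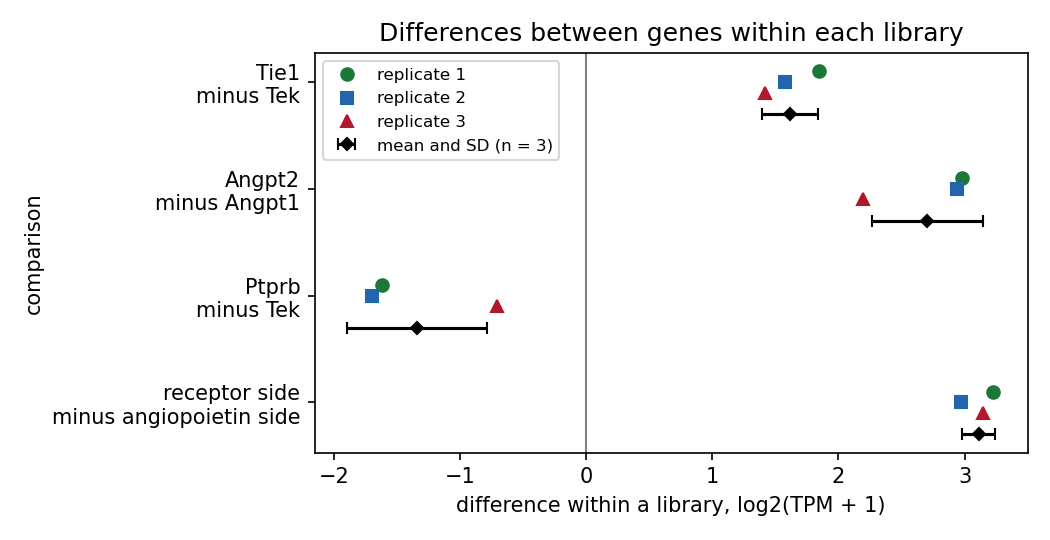
Differences between genes within each library on the log2(TPM + 1) scale; colored symbols are the libraries and black diamonds the mean with its SD (n = 3). Each comparison lies on one side of 0 in all 3 libraries, and replicate 3 lies nearest to 0 for Tie1 minus Tek, Angpt2 minus Angpt1 and Ptprb minus Tek.

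Angptl4 and Svep1 are the remaining secreted members. Angptl4 (Entrez 57875, chromosome 17, 33774900 to 33781575, minus strand) was at 5.33, 2.90 and 6.73 TPM, lowest in replicate 2, with a mean of 4.99 ± 1.94. Svep1 (Entrez 64817, chromosome 4, 58042796 to 58206596, minus strand) was at 0.992, 1.25 and 3.81 TPM. Its value in replicate 3 was 3.41 times the mean of the other libraries, and its mean of 2.02 ± 1.56 was 1.12 without replicate 3. Svep1 missed 1 TPM narrowly in replicate 1.

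Ordered by mean, the genes ran Tie1, Tek, Angpt2, Ptprb, Angptl4, Svep1, Angpt1 and Angpt4. Neighbours in this order did not overlap for Tie1 and Tek, Tek and Angpt2, and Svep1 and Angpt1. The ranges of Angpt2 and Ptprb overlapped, and Ptprb was the higher of the pair in replicate 3. Those of Ptprb and Angptl4, of Angptl4 and Svep1, and of Angpt1 and Angpt4 overlapped too. Of the 8 genes, 5 reached 1 TPM in every library (Tie1, Tek, Angpt2, Ptprb and Angptl4), as did 53.4% of all genes, and 4 of 8 reached 5 TPM in every library, as did 40.7% of all genes. All 8 were above 0 in every library, as were 70.1% of genes, and 6 had a mean of 1 TPM or more, as had 56.5%.

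The genes were then placed against 12 genes of endothelium in general (Pecam1, Cdh5, Cldn5 and others), by subtracting the median of that list in the same library. Tie1 lay close to it, at -0.24 ± 0.07 on the log2(TPM + 1) scale. The SD of Tie1 was 0.26 before this step and 0.07 after it, so Tie1 kept nearly the same distance from the endothelial median in all 3 libraries. Angpt2 lay at -3.03, and its SD went from 0.37 to 0.27. The spread of Tek went the other way, from 0.10 to 0.20, as did that of Ptprb, from 0.48 to 0.68, and of Svep1, from 0.69 to 0.89. The side of the median on which Tie1 lay depended on the reference: against the mean of the list it was 0.22 above, and against Pecam1 alone 0.69 below. The spreads depended on it too. That of Tie1 was 0.11 against the mean of the list and 0.17 against Pecam1 alone, and that of Tek 0.16 and 0.11. Against Pecam1, Tek thus varied less than Tie1.

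Replicate 3 was the highest or the lowest library for all 8 genes. It was the highest for Angpt1, Angpt4, Angptl4, Ptprb and Svep1, and the lowest for Tie1, Tek and Angpt2. By TPM, another library stood furthest from the others for Angpt1 (replicate 1), Tek (replicate 2) and Angptl4 (replicate 2). Among the 16887 genes above 0 in every library, replicate 3 was the highest for 42.5% and the lowest for 22.2%. The 8 of 8 has to be set against both shares together, so most genes share this trait. With median-of-ratios scaling these shares were 33.6% and 34.4%, while each of the 8 genes stayed on its side. The value of replicate 3 was at least 1.5 times the mean of the other libraries for Angpt4 (3.70), Svep1 (3.41), Ptprb (1.90) and Angptl4 (1.64), as for 14.4% of these genes. It was at most 0.75 times that mean for Angpt2 (0.621) and Tie1 (0.738), as for 8.78%. Both limits were set after the values were seen. Tek (0.910) and Angpt1 (1.33) lay between them.

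Cell type markers moved in the same library. Of the lymphatic markers 10 of 11 were lowest in replicate 3, as were 10 of 12 general endothelial markers and 6 of 8 markers of collecting vessels and valves. All 8 fibroblast, all 9 pericyte and smooth muscle and all 8 macrophage markers were highest there. Their summed levels in replicate 3 were 2.99, 2.09 and 2.61 times the mean of the other libraries, against 0.568 for the lymphatic list. Blood endothelial markers were divided, with 5 of 10 highest and 4 lowest in replicate 3, and a summed TPM of 744, 697 and 884. Car4, at 143, 148 and 289 TPM, was the largest part of that sum in replicate 3. Which cells its transcripts came from, in libraries with abundant epithelial transcripts, was not tested, so the rise of the sum is not a measure of blood endothelium. Flt1 of that list, at 2.63, 2.67 and 11.98 TPM, was highest in replicate 3, while Gpihbp1, at 193, 176 and 88.9, was lowest. The epithelial sum was 1.18 times as high in replicate 3 as the mean of the other libraries, and no epithelial marker was lowest in replicate 3. Platelet markers, considered because platelets carry ANGPT1, were near the floor apart from Pf4 (31.2 ± 19.0), with 1 of 5 at 1 TPM in every library and Gp9 at 0 in replicate 1. Of the adipocyte markers, considered because fat cells express Angptl4, 1 of 4 reached 1 TPM in every library and Lep was at 0 in all 3. The part of these other cells in the levels of Svep1, Ptprb, Angptl4, Angpt1 and Angpt4 was not tested.

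**Figure D3:**
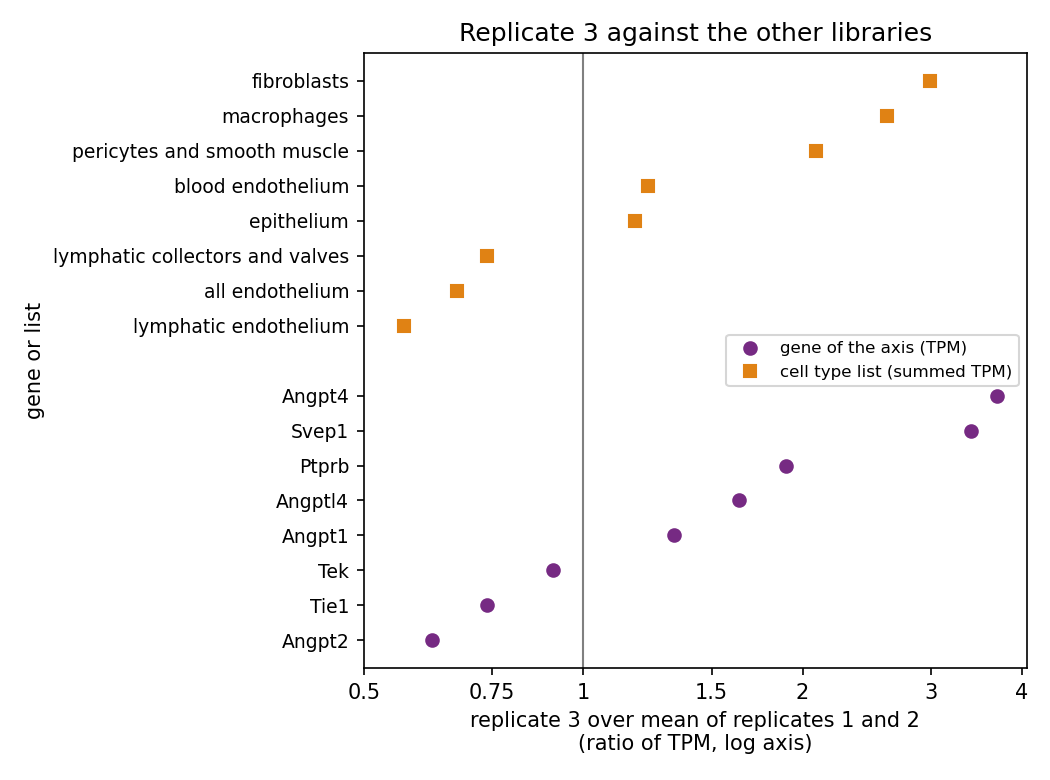
Ratio of replicate 3 to the mean of replicates 1 and 2 (log axis) for the 8 genes (circles, TPM) and for 8 cell type lists (squares, summed TPM; platelet and adipocyte lists not drawn). Angpt2 (0.621), Tie1 (0.738) and Tek (0.910) lie on the side of the lymphatic (0.568) and general endothelial (0.672) lists, and Svep1 (3.41) and Angpt4 (3.70) lie beyond the fibroblast list (2.99). The ratio of Angpt4 is imprecise, as its values were 0.0924, 0.339 and 0.798 TPM. The cells behind these levels were not tested.

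Marker genes with the most similar pattern over the 3 libraries were found for the 6 genes of mean TPM 1 or more, by the Euclidean distance between log2(TPM + 1) values centred on each gene, among 79 markers. With 3 libraries many genes resemble each other, so the share of 13605 genes that lay as near is given beside each. For Angpt2 these were Maf and Sox18, transcription factors of lymphatic endothelium, at distances of 0.104 and 0.112 (0.301% and 0.404% of genes as near). For Tie1 they were Robo4, an endothelial guidance receptor, at 0.0637 and Itga9, the integrin subunit of lymphatic valves, at 0.0655 (0.441% and 0.463%). For Tek they were the endothelial transcription factor Erg at 0.0546 and the Notch ligand Dll4 at 0.0619, but Tek varied so little that 2.64% and 3.46% of genes were as near.

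The nearest markers of the other 3 genes came from several lists. Ptprb was nearest to Adgre1, a macrophage marker, at 0.0752 and to Pdgfrb, a pericyte receptor gene, at 0.108 (0.184% and 0.301% of genes as near). Svep1 was nearest to Sox17, an endothelial factor typical of arteries, at 0.159 and to Car4, of the blood endothelial list, at 0.187 (0.206% and 0.265%). Angptl4 was nearest to Esam, an endothelial adhesion gene, at 0.183 and to the goblet cell gene Tff3 at 0.363 (0.316% and 1.73%). A small distance describes these libraries only. The name of a list does not give the cell of origin of a transcript, as for Car4 in libraries with abundant epithelial transcripts.

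Genes of the wider pathway were counted by the same rule. Of 44 listed genes, 39 reached 1 TPM in every library (88.6%, against 53.4% of all genes), and the median of their means was 16.5 TPM, against 2.48 for all genes. Of 15 genes of TIE receptor signalling, 14 did. Adaptors that dock to phosphorylated receptors were abundant, with Grb7 at 72.0 ± 6.82, Grb2 at 58.4 ± 9.01 and Shc1 at 56.2 ± 5.08, while Grb14 stood at 1.76 ± 0.665. Dok2, an adaptor of TEK, was at 2.55, 0.503 and 3.13 and was the exception. The other signalling genes of this list that bind adaptors or receptors were Nck1 at 46.8 ± 5.75, Pak1 at 47.9 ± 6.78, Ptpn11 at 22.0 ± 5.06 and Tnip2 at 14.4 ± 1.19.

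Downstream of the receptors, PI3 kinase and AKT pass the signal to the transcription factor FOXO1, which AKT keeps out of the nucleus and which can drive Angpt2. Akt1 was at 125 ± 15.9 and Akt2 at 27.3 ± 2.27. Pik3r1 stood at 24.6 ± 4.71, Pik3ca at 10.6 ± 1.07 and Pik3cb at 4.29 ± 1.01. Foxo1 was at 17.1, 18.4 and 16.0 TPM in replicates 1, 2 and 3 (17.2 ± 1.20). Like Angpt2 it was lowest in replicate 3, though within a narrower range. The same held for 22.2% of the genes above 0 in every library. A link between Foxo1 and Angpt2 was not tested. Most of these genes are active in many cell types, and the libraries also held abundant epithelial transcripts.

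Proteases that can shed receptor ectodomains were present, with Mmp14 at 52.5 ± 4.70, Adam10 at 49.5 ± 4.88 and Adam17 at 15.8 ± 1.50. Lect2, the gene of a further TIE1 ligand, was at 0.901, 1.12 and 0.837 TPM, around 1 in all libraries. All 7 genes of integrins and SVEP1 receptors reached 1 TPM in every library. Itgb1 led at 140 ± 12.8, followed by Pear1 (31.6 ± 7.04), Itgb5 (20.4 ± 6.21), Itga5 (12.1 ± 2.49), Itga9 (9.84 ± 1.64), Itgav (9.07 ± 1.50) and Itgb3 (4.59 ± 0.973). Pear1 encodes a receptor that binds SVEP1, and Itga9 encodes the subunit of the integrin that does so. Pear1 was at 37.4, 33.7 and 23.7 TPM and Itga9 at 11.1, 10.5 and 7.97, both lowest in replicate 3, where Svep1 was highest.

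Among receptor phosphatases of the PTPRB subfamily, Ptprh (18.3 ± 4.84) and Ptprj (15.6 ± 4.50) had higher means than Ptprb (8.18 ± 3.27), and Ptpro was at 5.81 ± 1.09. Ptprh is a phosphatase of intestinal epithelium and Ptprj is found in many cell types. Ptprj was at 10.4, 17.4 and 18.9 TPM, above Ptprb in every library, although their ranges overlapped, as did those of Ptpro and Ptprb. Ptprq was listed at 0 in 2 libraries and at 0.0111 in replicate 3.

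The angiopoietin-like genes were mostly low. Angptl2 was the highest of the 5 others at 7.83 ± 1.99, with Angptl8 at 2.59 ± 0.693 and Angptl6 at 2.34 ± 0.420. Angptl1 (0.360 ± 0.107) and Angptl7 (0.292 ± 0.153) stayed below 1 TPM in every library. Of these, ANGPTL8 also acts on lipoprotein lipase. Angptl4 at 4.99 ± 1.94 thus had the next mean after Angptl2, and their ranges overlapped by a narrow margin.

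All 9 genes of ANGPTL4 partners and regulators reached 1 TPM in every library. Lpl, the lipase that ANGPTL4 inhibits, was at 17.8, 15.8 and 13.8 TPM, which is 3.34, 5.45 and 2.06 times Angptl4. Gpihbp1, which holds the lipase on capillary endothelium, was at 153 ± 55.8, Lmf1, needed for its folding, at 25.4 ± 0.426, and endothelial lipase, Lipg, at 12.8 ± 3.52. The nuclear receptors that induce Angptl4 were led by Ppard at 76.3 ± 17.5 and Pparg at 54.9 ± 10.6, with Ppara at 5.04 ± 2.43. The hypoxia factor genes Epas1 and Hif1a were at 44.0 ± 11.998 and 24.7 ± 4.36. Angptl4 was lowest in replicate 2, where Ppara, Ppard, Pparg, Hif1a and Epas1 were all higher than in replicate 1. In replicate 3, where Angptl4 was highest, Ppara, Ppard, Hif1a and Epas1 were highest too, while Pparg was highest in replicate 2. Of the genes above 0 in every library, 42.5% were highest in replicate 3. A link between Angptl4 and these regulators was not tested.

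**Figure D4:**
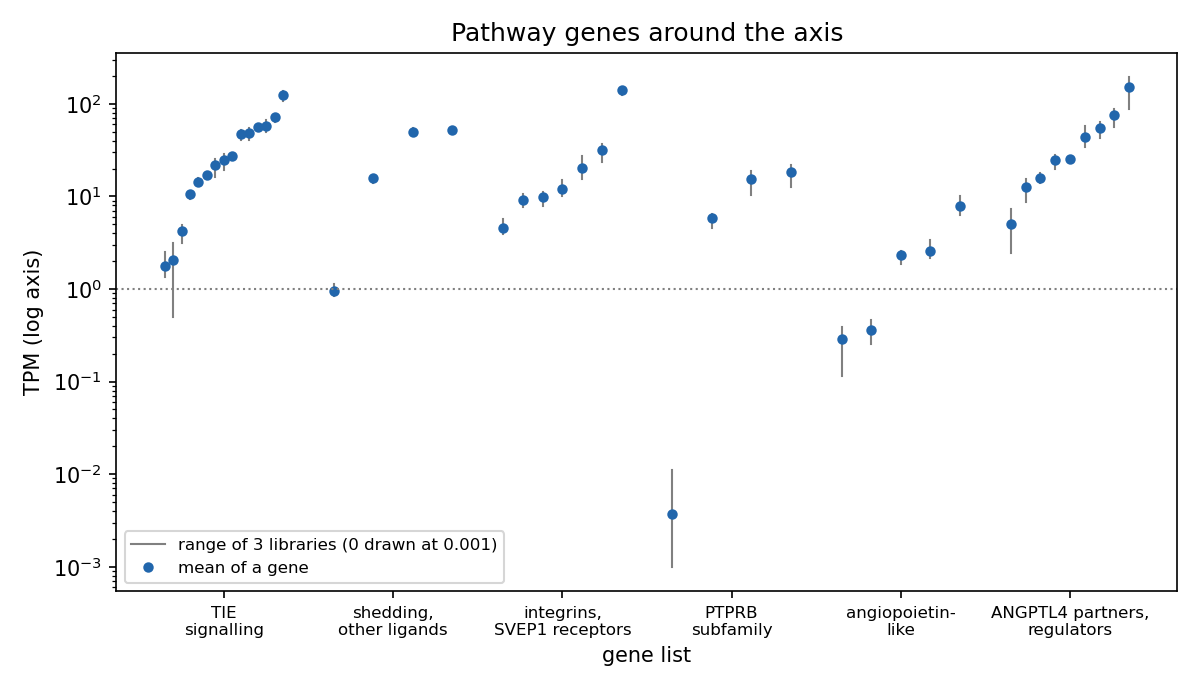
Mean TPM (points, log axis) and range over the 3 libraries (lines) of the 44 pathway genes in 6 lists, with a dotted line at 1 TPM and a value of 0 drawn at 0.001. Only 5 of them lie below 1 TPM in any library: Dok2, Lect2, Ptprq, Angptl1 and Angptl7.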

How the data were processed

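Tables of TPM values, 1 per library, were used as the authors deposited them: unit and scaling are per the file headers and the column sums, which lay between 999896 and 999939. Per the submitters' processing notes, the genome build was mm10 and Cell Ranger 6.0.1 and HTSeq were used. How TPM was computed and the annotation are not given in the sources used here. Coordinates are from RefSeq on GRCm38.p6, the assembly of mm10, matched by Entrez ID, and transcript lengths are the longest of GENCODE M21.

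Sequencing depth is not kept in TPM. It was estimated from regular steps in the values of 7007 genes with 1 RefSeq transcript and over 1000 bases, with an assumed fragment length of 200 bases. A TPM of 1 on 1000 effective bases stood for about 32.5, 28.7 and 26.3 fragments in replicates 1, 2 and 3 (phase scores 0.462, 0.469 and 0.496). No counting interval was derived from this.

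Differences between genes were taken within a library on log2(TPM + 1), averaged over the 3 libraries with their SD. The test flipped the signs of the 3 values in all ways (exact permutation, two-sided), with Benjamini-Hochberg adjustment over 4 differences. A gene was called expressed at 1 TPM or more in every library. All 8 members and all pathway genes, apart from 2 that are not reported here, are named, and markers by the most similar pattern. The members and lists were chosen with earlier results of these data known. Ratios of single genes, and the counts on replicate 3, were added after the values were seen. The steps were tested on simulated data. Alternatives were other thresholds and pseudocounts, 2 scalings, other endothelial references and leaving out each library. Python 3.11.15, numpy 2.4.6, pandas 2.3.3 and matplotlib 3.10.9 were used.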

Additional observations from a re-analysis of the deposited data

How the results depend on the processing

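All 4 within-library differences kept their sign with a pseudocount of 0.1 and without each replicate, but the sign-flip test cannot give a p below 0.25 with 3 libraries or below 0.5 with 2, so this is a statement on sign only. Leaving out a replicate could not change a sign, because all 3 libraries lay on one side of 0. For a difference between 2 genes, a pseudocount could not change it either. Without each replicate in turn, Tie1 minus Tek ranged from 1.50 to 1.71, Angpt2 minus Angpt1 from 2.57 to 2.96, Ptprb minus Tek from -1.66 to -1.16 and receptor side minus angiopoietin side from 3.06 to 3.18. The count of members at 1 TPM in every library was 5 or 6 without each replicate, 4 at 5 TPM and 8 with any TPM above 0. That of pathway genes was 39 or 40 without each replicate, 41 at 0.5 TPM, 32 at 5 TPM and 43 above 0. Mean TPM without each replicate ranged from 0.216 to 0.569 for Angpt4, from 1.12 to 2.53 for Svep1 and from 6.30 to 9.18 for Ptprb. Rescaling without ribosomal protein genes and Mir6236 raised all values, by 0.44, 0.38 and 0.38 (log2, median gene) in replicates 1, 2 and 3, and moved the means of Angpt1 to 0.708, Angpt2 to 12.3, Tek to 28.7 and Tie1 to 91.8. Median-of-ratios scaling shifted the median gene by 0.14, -0.08 and -0.08. Relative to the endothelial median, a pseudocount of 0.1 gave -7.02 for Angpt1 and -7.57 for Angpt4. With the mean of the endothelial list the values were -5.27 for Angpt1, -2.56 for Angpt2, -1.39 for Tek and 0.22 for Tie1, which reversed. With Pecam1 alone they were -6.18, -3.47, -2.30 and -0.69. Of 134 alternatives over 24 results, 119 stayed within their limit, 14 moved a value and 1 reversed. Many of the 119 could not have left it. With 3 libraries, neither leaving out 1 library nor taking the median can move a mean level by 1 SD. The differences without a replicate were fixed in the same way. The count of 119 is therefore no measure of stability. The limit was 1 SD between libraries for a level, 1.5 times for a count, and sign and side of the 0.05 threshold of the exact test for a difference, so it is wide for variable genes such as Svep1 and Angpt4. No paired analysis was possible because the series has 1 group and no groups to pair; the tested differences are themselves taken within libraries.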
